A study of Homo sapiens with 12 samples.

Results

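The 9 genes described here are HSD11B1 and 8 genes of the glucocorticoid response, out of 58735 gene rows in the count table. All 9 were among the 25873 genes tested, those with a total of at least 10 counts over the 12 libraries. HSD11B1 was chosen from its level in co-culture against mono-culture, which was raised in every co-culture group, so that this contrast is given for it as a description with no test. The other 8 genes were chosen by role: H6PD for the supply of its cofactor, NR3C1 as the receptor, and FKBP5, TSC22D3, PER1, KLF9, ZBTB16 and CD163 as known glucocorticoid targets. RNA-sequencing covered THP1 cells, a human leukemia monocytic cell line of wild-type genotype, in 4 groups of 3 libraries. THP1 mono-culture was grown without endothelial cells (ECs) in the complete endothelial medium that the co-cultures also had. The other groups shared a well for 24 h with ECs that were normal (control ECs), senescent (senECs) or senescent and treated with EGCG, at 400000 THP1 cells above 500000 ECs on the far side of a membrane with 1 µm pores. The ECs were human umbilical vein endothelial cells, kept beforehand with DMSO (control ECs), with etoposide, which damages DNA (senECs), or with etoposide and the green tea catechin EGCG (EGCG-treated senECs). The THP1 cells of all 4 groups, mono-culture included, then received 100 ng/ml LPS for 2 h before RNA was isolated, so that no unstimulated THP1 cells stand among the 12 libraries. THP1 stands for monocytes as a single leukemia line, and the labels do not say whether replicates came from separate cultures, so that p-values measure only the spread between these libraries.

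Cells can make active cortisol from inactive cortisone with HSD11B1, a reductase of the endoplasmic reticulum that uses NADPH made in the same compartment by H6PD. Cortisol binds the glucocorticoid receptor NR3C1, which leaves its chaperones, enters the nucleus and turns genes on or off. Monocytes gain HSD11B1 as they mature into macrophages, and in these cells glucocorticoids raise the scavenger receptor CD163 and dampen inflammatory cytokines. Neither cortisol nor cortisone was measured in these data.

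RefSeq promoter windows (GRCh38.p14, 250 bases before to 50 after a transcription start) matched 8 of the 9 genes, with 18 windows in all, and ZBTB16 had no match. They were searched on both strands for the 6-base core of the receptor's binding element, AGAACA. It was present in 3 of the 18 windows, those of H6PD, FKBP5 and CD163, each with 1 copy, against 14.8% of the 35116 windows of all genes. The single HSD11B1 window, chr1:209685929-209686228 on the plus strand, is shown because HSD11B1 is the gene with the raised level, and it held no match. The windows of FKBP5 (chr6:35728534-35728833, minus strand, the 1 of its 2 windows with a match) and CD163 (chr12:7503728-7504027, minus strand) are shown as those of the targets with the core, which is in capitals.
HSD11B1: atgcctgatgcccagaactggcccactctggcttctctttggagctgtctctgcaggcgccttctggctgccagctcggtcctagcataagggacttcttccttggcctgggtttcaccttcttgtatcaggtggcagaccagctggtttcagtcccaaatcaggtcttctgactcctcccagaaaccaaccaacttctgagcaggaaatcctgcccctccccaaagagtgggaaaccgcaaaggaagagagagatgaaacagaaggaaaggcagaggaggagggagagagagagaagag
FKBP5: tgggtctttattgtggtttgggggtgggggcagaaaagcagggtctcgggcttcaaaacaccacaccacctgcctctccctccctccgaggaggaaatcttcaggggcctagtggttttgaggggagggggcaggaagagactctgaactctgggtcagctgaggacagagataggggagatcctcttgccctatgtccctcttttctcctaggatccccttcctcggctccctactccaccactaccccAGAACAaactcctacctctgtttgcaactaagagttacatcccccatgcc
CD163: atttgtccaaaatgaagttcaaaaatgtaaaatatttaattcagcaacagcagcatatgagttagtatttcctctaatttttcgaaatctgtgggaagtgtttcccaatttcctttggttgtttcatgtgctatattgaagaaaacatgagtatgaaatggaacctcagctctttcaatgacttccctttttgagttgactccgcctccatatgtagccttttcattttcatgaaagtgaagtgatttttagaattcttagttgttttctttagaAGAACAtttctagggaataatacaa
The core began at position 1 of the FKBP5 transcript and at position 26 of the CD163 transcript, counted from the first transcribed base, and 204 bases before the H6PD start. A pair of cores facing each other 3 bases apart was in none of the 18 windows and in 1 of the 35116. The C/EBP core TTGCNNAA was in 3 of the 18 windows, those of PER1, CD163 and 1 of the 7 of NR3C1, against 10.5% of all windows, and it was not in that of HSD11B1. TGACG, the core of the cAMP response element, was in 7 of the 18 windows (24.6% of all) and TATAAA in 2 (11.5% of all), with neither in the HSD11B1 window. A match is a run of letters and does not show that a factor is bound.

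Total counts per library ran from 15439836 to 22092600 with a median of 18153783, and each value below rests on this depth. Levels are given as counts scaled to TMM library sizes (CPM), and as FPKM, which also divides by exon length, where genes are compared with each other. In the smallest library a gene with 0 counts could be present at up to 0.194 CPM, a limit for counting error only. All 18 THP1 monocyte markers were tested, with a summed level from 4594 to 5967 CPM, led by the granule proteases AZU1, PRTN3 and ELANE. Of 18 endothelial markers, 14 had enough counts to be tested and 0 passed in any comparison by edgeR or DESeq2. The defining endothelial gene CDH5 had 2 counts in the 12 libraries together, and VWF 7 to 40 counts per library. The summed endothelial level was 162 to 187 CPM in mono-culture, 159 to 183 with control ECs, 200 to 240 with senECs and 192 to 247 with EGCG-treated senECs, of which PECAM1, an adhesion molecule that monocytes also carry, made up the larger part. The 10 reference genes had 0 calls by edgeR in all comparisons (GAPDH passed by DESeq2 in 2 of them) and a median log2 fold change of 0.07 between any co-culture and mono-culture.

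HSD11B1 (ENSG00000117594.9, GRCh38 chr1:209686178-209734950, plus strand) was the member with the raised level. It stood at 90.7, 96.2 and 69.3 CPM in mono-culture replicates 1, 2 and 3. With control ECs it was 148, 164 and 150 CPM in replicates 1, 2 and 3. With senECs it was 148, 172 and 178 CPM in replicates 1, 2 and 5, and with EGCG-treated senECs 140, 184 and 150 CPM. Every co-culture library was above every mono-culture library, as in 1.77% of all genes tested, while the co-culture groups overlapped with each other. The mean was 85.4 ± 14.2 CPM without ECs, and in the order control ECs, senECs, EGCG-treated senECs it was 154 ± 8.61, 166 ± 16.0 and 158 ± 23.4 CPM (SD, n = 3 each). The log2 fold change against mono-culture was 0.85 (95% interval 0.58 to 1.12) with control ECs, 0.96 (0.69 to 1.23) with senECs and 0.89 (0.62 to 1.16) with EGCG-treated senECs. Over all co-cultures it was 0.90 (0.67 to 1.13), or 1.86-fold. These 4 contrasts use the same 3 mono-culture libraries, and they chose the gene, so that they carry no p. As in all bulk samples, a gene raised in every cell and a larger share of cells that carry it cannot be told apart here.

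**Figure D1:**
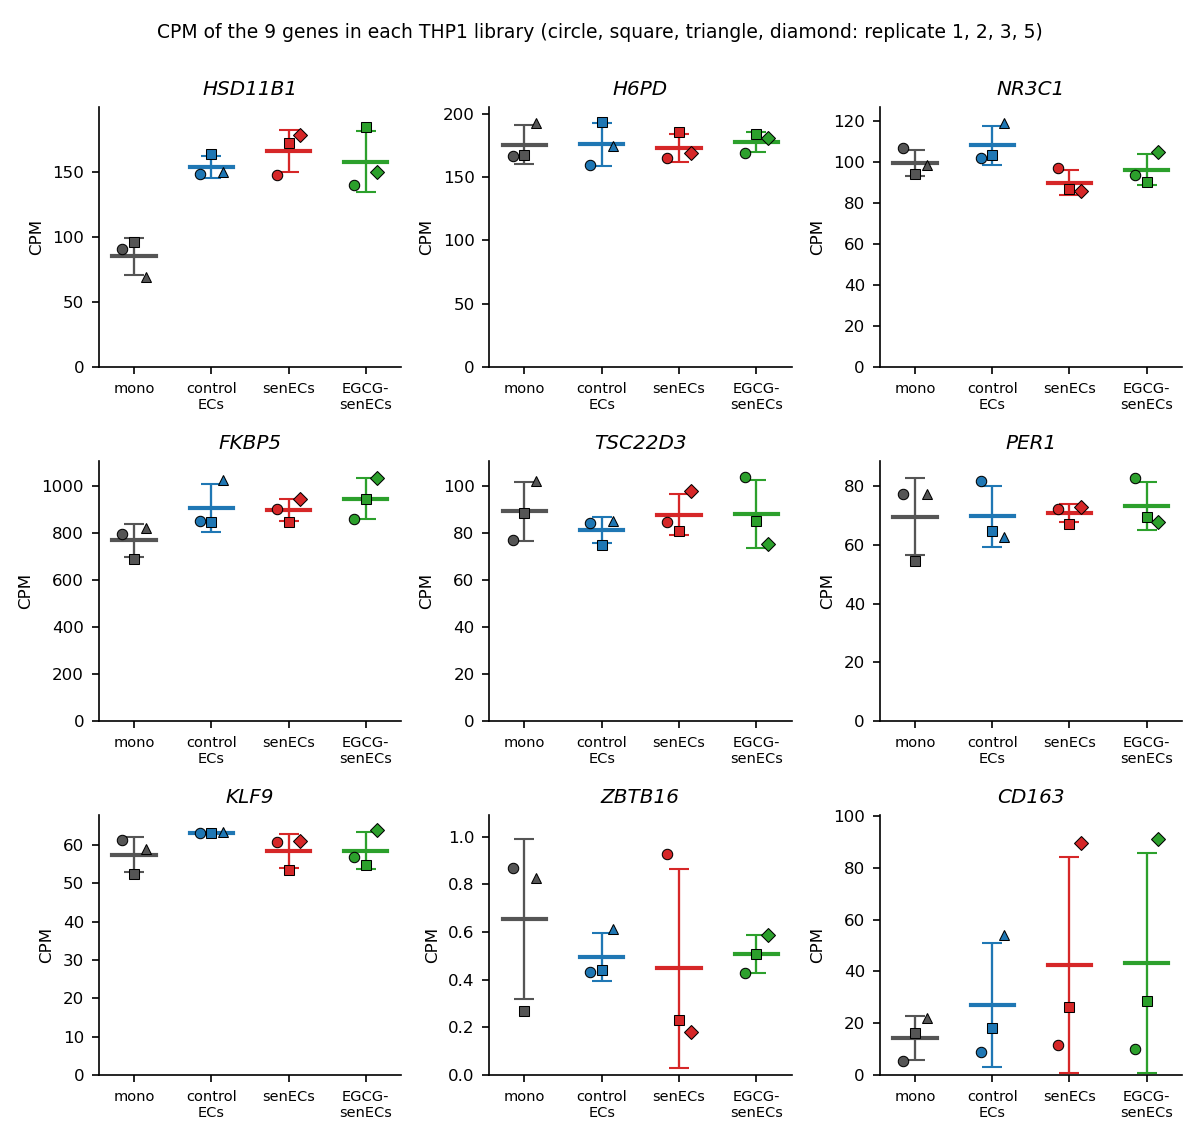
CPM of each of the 9 genes (y axis, from 0) in the 12 THP1 libraries by group (x axis), with a point per library shaped by its replicate number, a bar at the mean and whiskers of 1 SD (n = 3). The HSD11B1 points of the co-cultures, 140 to 184 CPM, all lie above the mono-culture points, while CD163 runs from 5.28 to 91.1 CPM and is lowest in replicate 1 of each group.

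On the FPKM scale HSD11B1 stood above FKBP5 in co-culture and below it in mono-culture. In mono-culture HSD11B1 had 45.8 to 63.6 FPKM and FKBP5 64.9 to 77.1 FPKM, with HSD11B1 lower in 3 of 3 libraries. In co-culture HSD11B1 had 92.4 to 122 FPKM and FKBP5 79.6 to 97.3 FPKM, with HSD11B1 higher in 9 of 9 libraries. This change of order restates the HSD11B1 step that chose the gene. It also rests on the exon lengths used, 1513 bases for HSD11B1 and 10628 for FKBP5. In CPM the mean of FKBP5 was higher in mono-culture (768 against 85.4) and in co-culture (916 against 159). In mean FPKM over the 12 libraries the members fell in the order HSD11B1 (93.1 ± 24.1), FKBP5 (82.7 ± 9.15), H6PD (18.8 ± 1.22), TSC22D3 (18.2 ± 2.06), KLF9 (11.5 ± 0.80), NR3C1 (10.8 ± 1.02) and PER1 (10.1 ± 1.18, SD, n = 12), with CD163 and ZBTB16 below. Among neighbours in this order, H6PD and TSC22D3, KLF9 and NR3C1, and NR3C1 and PER1 differed by less than the SD of either gene. HSD11B1 and FKBP5 differed by less than the SD of HSD11B1 and by more than that of FKBP5, and KLF9 and PER1 by more than either SD.

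The neighbours of HSD11B1 on chromosome 1 were taken as the nearest 3 genes on each side and any gene overlapping it. In any co-culture against mono-culture 0 of the 6 with enough counts passed, where 0.723% of all genes tested did, and MIR4260 had 3 counts in all. LAMB3, a laminin chain, had a log2 fold change of 0.23 (95% interval -0.14 to 0.60), and G0S2, an inhibitor of lipolysis, -0.21 (-0.69 to 0.28). The pseudogene ADORA2BP1 had 0.68 (0.15 to 1.21, edgeR adjusted p = 0.321) at 1.96 CPM in mono-culture and 2.67 to 3.56 CPM in the co-cultures. TRAF3IP3, an adaptor of immune cells, had 0.09 (-0.25 to 0.43) and C1orf74 -0.03 (-0.29 to 0.23). The antisense gene AL031316.1 overlaps HSD11B1 and had 1 to 18 counts per library against 1259 to 3731 for HSD11B1. Whether the counting used strand is not given in the sources used here, so that reads of this pair cannot be told apart.

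**Figure D2:**
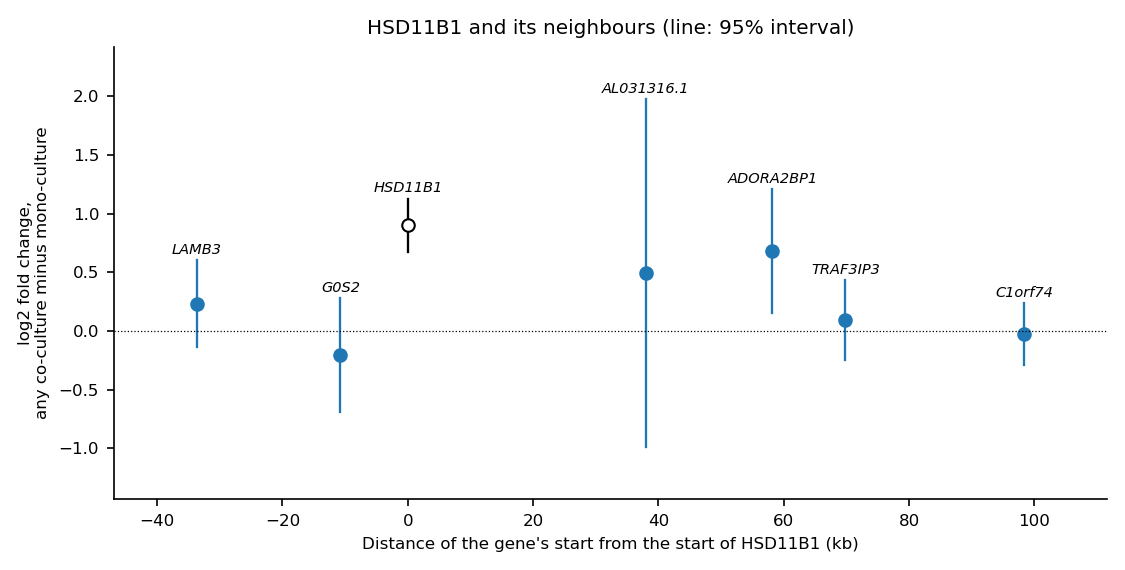
The log2 fold change of any co-culture against mono-culture (y axis, edgeR, line: 95% interval) of HSD11B1 (open circle, chosen from this contrast) and its tested neighbours, by distance of their start sites from that of HSD11B1 in kb (x axis). The HSD11B1 value of 0.90 stands above 0, and the intervals of LAMB3, G0S2, AL031316.1, TRAF3IP3 and C1orf74 reach across 0.

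The genes closest to HSD11B1 in profile were found among 14397 genes with a mean of at least 1 CPM, by the root-mean-square difference of log2(CPM + 2) after each gene was centred on its mean over the 12 libraries. PPP1R27, a regulatory subunit of protein phosphatase, came first at 0.136 on this log2 scale. It was followed by LAP3, a leucine aminopeptidase (0.146), METTL7B, a methyltransferase of the endoplasmic reticulum (0.155), CEACAM4, a receptor of phagocytes (0.163), and STAC, an adaptor protein (0.170). HSD11B1 itself lay 0.414 from its own mean. PPP1R27 had 131 to 148 CPM in mono-culture and 218 to 327 CPM in co-culture, and LAP3 160 to 170 CPM and 281 to 390 CPM, without overlap in either gene. The other members were further away, with FKBP5 at 0.345 (rank 975) and CD163 at 1.04 (rank 14391). The likeness rests on the step between mono-culture and co-culture that chose HSD11B1, and the 12 points share their libraries.

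**Figure D3:**
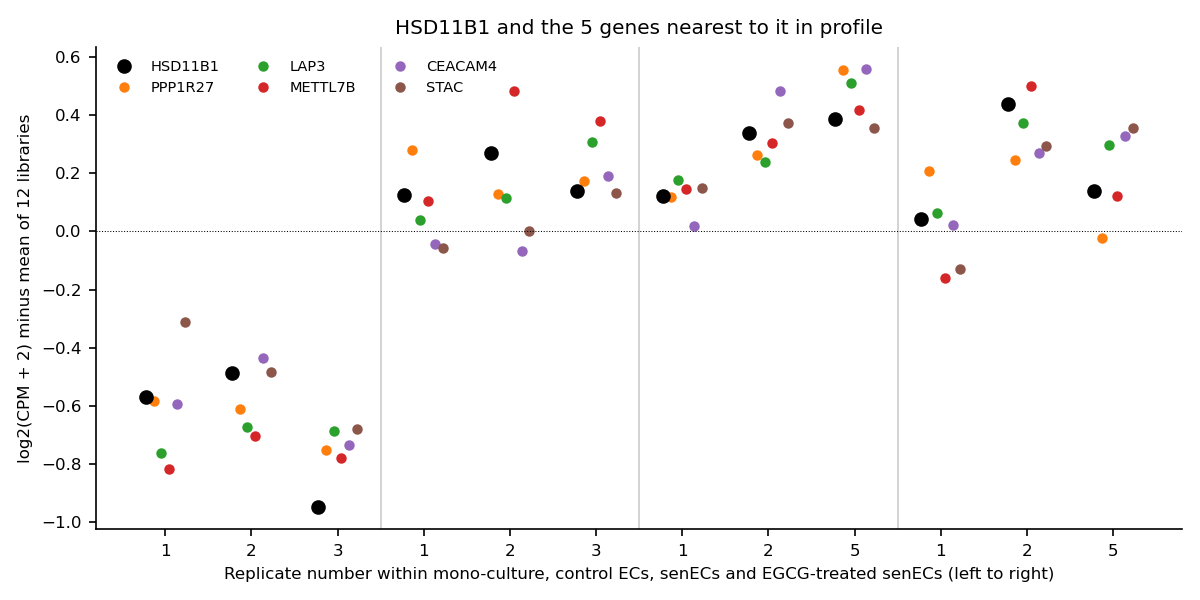
Log2(CPM + 2) minus the gene's mean over the 12 libraries (y axis) for HSD11B1 (large black points) and the 5 genes nearest to it, in each library (x axis, by replicate number within the 4 groups). The mono-culture points of all 6 genes lie below 0, and HSD11B1 runs from -0.95 in mono-culture replicate 3 to 0.44 in replicate 2 with EGCG-treated senECs.

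Among the 8 members other than HSD11B1, 0 passed an adjusted p of 0.05 by edgeR's quasi-likelihood test in any comparison with mono-culture, and 0 did by DESeq2. Both models held the group as their only term. The share of all genes tested that passed was 0.723% for any co-culture, 0.143% for that of control ECs, 0.309% for senECs and 0.213% for EGCG-treated senECs, each against mono-culture. At an unadjusted p under 0.05, FKBP5 and CD163 were the 2 of 8 in any co-culture against mono-culture, where 10.7% of all genes were. The median log2 fold change of the 8 was 0.02 and that of all genes -0.02, with 4 members above 0 and 4 below. With the replicate number as a further term in edgeR, CD163 and FKBP5 passed in any co-culture, as did 824 of the 25873 genes. A limit of that fit is given with CD163 below.

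H6PD, which makes the NADPH that HSD11B1 uses, had nearly the same level in all groups. It was 166, 168 and 193 CPM in mono-culture, 160, 194 and 175 CPM with control ECs, 165, 186 and 169 CPM with senECs and 169, 184 and 181 CPM with EGCG-treated senECs. All 4 groups overlapped, and replicate 1 was the lowest in each, which held for 5.41% of all genes tested. Any co-culture against mono-culture gave a log2 fold change of -0.00014 with a 95% interval of -0.17 to 0.17. Of the list of enzymes and transporters of cortisol and its cofactor, 18 of 24 genes were tested, and 0 of the 17 other than HSD11B1 passed in any comparison with mono-culture by edgeR or DESeq2, with 1 at an unadjusted p under 0.05 in any co-culture (STAR, the cholesterol carrier of steroid synthesis, 0.23). Their median log2 fold change was -0.03. The most abundant were PGD, an NADPH source of the cytosol (335 CPM in mono-culture, 397 in co-culture, log2 fold change 0.24, 95% interval -0.02 to 0.50), H6PD, and POR, which passes electrons to cytochrome P450 enzymes (183 and 169 CPM, -0.12, -0.29 to 0.06). The synthetic enzymes CYP11B1, CYP17A1, HSD3B1 and HSD3B2 were below the count minimum.

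NR3C1, the glucocorticoid receptor, was 107, 94.2 and 98.6 CPM in mono-culture and 102, 104 and 119 CPM with control ECs. It was 97.0, 86.9 and 86.0 CPM with senECs and 93.9, 90.6 and 105 CPM with EGCG-treated senECs. Mono-culture overlapped with every co-culture, and its log2 fold change over all co-cultures was -0.03 (95% interval -0.20 to 0.14). Of the 24 genes of the receptor complex and its coregulators, 1 passed in any co-culture against mono-culture by edgeR, where 0.723% of all genes tested did. This was FKBP4, an immunophilin that helps carry the receptor towards the nucleus, which rose from 34.4 ± 5.84 CPM to a mean of 48.7 CPM (log2 fold change 0.50 ± 0.11 SE, edgeR adjusted p = 0.0355). FKBP4 ranged from 30.4 to 41.1 CPM in mono-culture and from 41.2 to 56.9 CPM in co-culture, so that the groups came close without overlap. Of all genes tested 1.77% had every co-culture library above mono-culture. The call of FKBP4 was lost in 6 of the 12 fits that left out 1 library (edgeR adjusted p up to 0.266). By edgeR FKBP4 did not pass in any single co-culture group, while DESeq2 called it with senECs and with EGCG-treated senECs. The chaperones HSP90AB1 and HSP90AA1, which hold the receptor ready to bind its ligand, had 0.17 (-0.01 to 0.35) and 0.07 (-0.13 to 0.28). The list's median was 0.09, with 16 of 24 above 0.

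FKBP5, an immunophilin that lowers the receptor's affinity and is among its most responsive targets, was 795, 689 and 819 CPM in mono-culture and 849, 846 and 1025 CPM with control ECs. With senECs it was 902, 847 and 942 CPM, and with EGCG-treated senECs 858, 943 and 1034 CPM. All 9 co-culture libraries were above all 3 of mono-culture, as were 1.77% of all genes tested. The log2 fold change over all co-cultures was 0.25 (95% interval 0.07 to 0.44), and it did not pass (edgeR adjusted p = 0.291). In the 3 co-cultures it ranged from 0.22 with senECs to 0.30 with EGCG-treated senECs, all against the same mono-culture libraries. With the replicate number as a term, FKBP5 passed in any co-culture (0.27, edgeR adjusted p = 0.0219), in the fit whose limit is given with CD163 below.

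TSC22D3, known as GILZ, a leucine zipper protein that restrains inflammatory factors, was 77.3, 88.4 and 102 CPM in mono-culture and 75.0 to 104 CPM in co-culture. PER1, a repressor of the circadian clock, was 77.4, 54.4 and 77.3 CPM in mono-culture and 62.8 to 82.8 CPM in co-culture. KLF9, a zinc finger repressor, was 61.2, 52.4 and 58.9 CPM in mono-culture and 53.4 to 64.0 CPM in co-culture. For all 3 genes the co-culture values lay across those of mono-culture. The log2 fold change over all co-cultures was -0.06 for TSC22D3 (95% interval -0.27 to 0.16), 0.03 for PER1 (-0.20 to 0.26) and 0.06 for KLF9 (-0.11 to 0.24). These intervals hold changes of up to 1.20-fold for PER1 and 1.18-fold for KLF9. ZBTB16, a zinc finger factor that glucocorticoids induce strongly in many cells, was close to the limit of detection, with 5 to 15 counts in the libraries of mono-culture and 3 to 18 in those of co-culture. At this depth its log2 fold change of -0.42 had a 95% interval of -1.49 to 0.64.

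CD163, the haemoglobin scavenger receptor of macrophages, was the member that varied most. It was 5.28, 16.0 and 21.9 CPM in mono-culture replicates 1, 2 and 3 and 8.97, 18.1 and 54.1 CPM with control ECs. With senECs it was 11.5, 26.4 and 89.8 CPM and with EGCG-treated senECs 10.1, 28.7 and 91.1 CPM in replicates 1, 2 and 5. Replicate 1 was the lowest and replicate 3 or 5 the highest in every group, and the ranges of all groups overlapped. The highest library of a group was up to 9.06 times its lowest, and the group means were 14.4 ± 8.41 CPM in mono-culture and 27.1 ± 23.9, 42.5 ± 41.6 and 43.3 ± 42.5 CPM in the co-cultures (SD, n = 3). The log2 fold change over all co-cultures was 1.34 with a 95% interval of 0.02 to 2.67 (edgeR adjusted p = 0.458), in a model without the replicate number as a term. With the replicate number as a term, CD163 passed (0.96, edgeR adjusted p = 4.95e-14). It was above the mono-culture library of the same number in 7 of 7 co-culture libraries. These 7 comparisons reuse the 3 mono-culture libraries, and the share of all genes with this order was not computed. The labels do not say what the numbers mark. Where all 34767 genes with a count entered the fit, CD163 passed in the 4 comparisons with mono-culture (adjusted p = 2.84e-25 for any co-culture). In that fit edgeR's prior degrees of freedom were infinite in place of 11.2 and the quasi-likelihood dispersion of CD163 was 0.706 in place of 19.3, so that the gene's own spread between replicates did not enter. The SE of CD163 for any co-culture was 0.121 there, 0.113 with the replicate number as a term and 0.633 without either change. With the replicate number the prior degrees of freedom were not recorded, so that its adjusted p may not reflect the gene's own spread either.

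**Figure D4:**
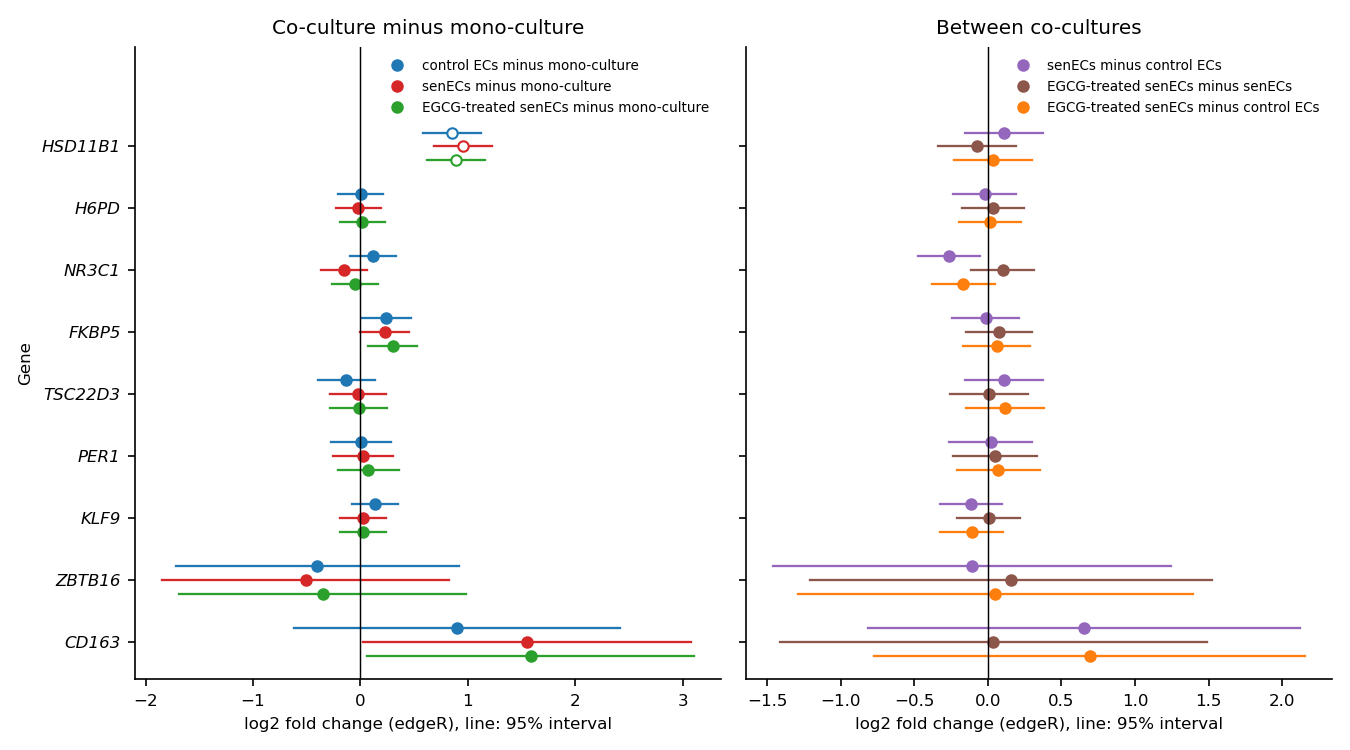
Log2 fold changes of the 9 genes (points, lines: 95% intervals, edgeR) of each co-culture against mono-culture (left) and between co-cultures (right), with open circles where the contrast chose the gene. The intervals of ZBTB16 and CD163 are wider than those of the other 7 genes, and NR3C1 with senECs against control ECs, at -0.27, is the value between co-cultures whose interval lies on 1 side of 0.

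The wider set of glucocorticoid-induced genes, 44 genes known from several cell types with 6 of the members among them, had 39 tested. In any co-culture against mono-culture 26 of the 39 were above 0 and 13 below, with a median log2 fold change of 0.11 against -0.02 for all genes. Of the 39, 1 passed, downwards, where 0.723% of all genes tested passed. The gene was PDK4, a kinase that shuts off pyruvate oxidation, which fell from 27.6 ± 5.43 CPM in mono-culture to a mean of 11.2 CPM (log2 fold change -1.31 ± 0.26 SE, edgeR adjusted p = 0.0175). PDK4 ranged from 21.8 to 32.5 CPM in mono-culture and from 3.86 to 16.3 CPM in co-culture, without overlap in the libraries that gave its call. The share of all genes with every co-culture library below mono-culture was not computed. The call of PDK4 was lost without each of the 3 mono-culture libraries (edgeR adjusted p = 0.0508 to 0.231) and kept without each co-culture library. The 3 most abundant genes of the list did not pass: TNFAIP3, an NF-kB inhibitor (0.11, 95% interval -0.24 to 0.45), ACSL1, a fatty acyl-CoA ligase (0.21, -0.16 to 0.58), and FKBP5. In the separate comparisons of control ECs, senECs and EGCG-treated senECs with mono-culture 0 of the 39 passed by edgeR or DESeq2. At an unadjusted p under 0.05 by edgeR stood 4, 9 and 6 of the 39, beside 1687, 2847 and 2220 of all 25873 genes.

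Of 25 genes known from glucocorticoid-treated monocytes and macrophages, 23 were tested, and 4 passed in any co-culture against mono-culture, 3 upwards and 1 downwards. The share of all genes tested that passed in this contrast was 0.723%. CD14, the LPS co-receptor, rose from 8.92 ± 2.67 CPM to a mean of 28.2 CPM (log2 fold change 1.59 ± 0.37 SE, edgeR adjusted p = 0.0492), with 5.90 to 11.0 CPM in mono-culture and 12.4 to 65.7 CPM in co-culture. THBS1, an adhesive matrix glycoprotein, rose from 168 ± 20.7 CPM to 311 CPM (0.89 ± 0.20 SE, edgeR adjusted p = 0.0480), and FCGR1A, the high-affinity IgG receptor, from 28.5 ± 2.15 CPM to 41.9 CPM (0.55 ± 0.12 SE, edgeR adjusted p = 0.0348). AXL, a receptor tyrosine kinase for apoptotic cells, fell from 9.45 ± 1.17 CPM to 3.50 CPM (-1.44 ± 0.20 SE, edgeR adjusted p = 0.00117). In all 4 genes the mono-culture and co-culture libraries, the same that gave the calls, did not overlap. Of all genes tested 1.77% had all 9 co-culture libraries above mono-culture. The share with all 9 below, the order of AXL, was not computed. The median of the list was 0.57, with 16 of 23 above 0, and 11 of 23 had an unadjusted p under 0.05 where 10.7% of all genes tested did. The complement genes C1QA, C1QB and C1QC and MERTK, IL10 and GAS6 were among those 11 with values above 0 and did not pass. In the single groups, AXL also fell with senECs (-1.74 ± 0.27 SE, edgeR adjusted p = 0.00610) and with EGCG-treated senECs (-1.31 ± 0.26 SE, edgeR adjusted p = 0.0404), and CD14 rose with senECs (2.09 ± 0.42 SE, edgeR adjusted p = 0.0363). With control ECs AXL was also low, at a mean of 3.87 CPM, and edgeR called 0 of the 23. DESeq2 called AXL as lower in each single group, FCGR1A and C1QB as higher with senECs and with EGCG-treated senECs, and CD14 as higher with senECs. With 1 library left out, the call of AXL with EGCG-treated senECs was lost in 8 of 12 fits (log2 fold change -1.59 to -1.01, edgeR adjusted p up to 0.222), that of CD14 with senECs in 7 (1.44 to 2.45, up to 0.258) and that of AXL with senECs in 1 (without senECs replicate 2, 0.0537). The calls of CD14 and THBS1 were each lost in 8 of the 12 fits that left out 1 library, that of FCGR1A in 6 and that of AXL in 0, for any co-culture. DESeq2 did not call THBS1, and it added C1QB and GAS6.

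**Figure D5:**
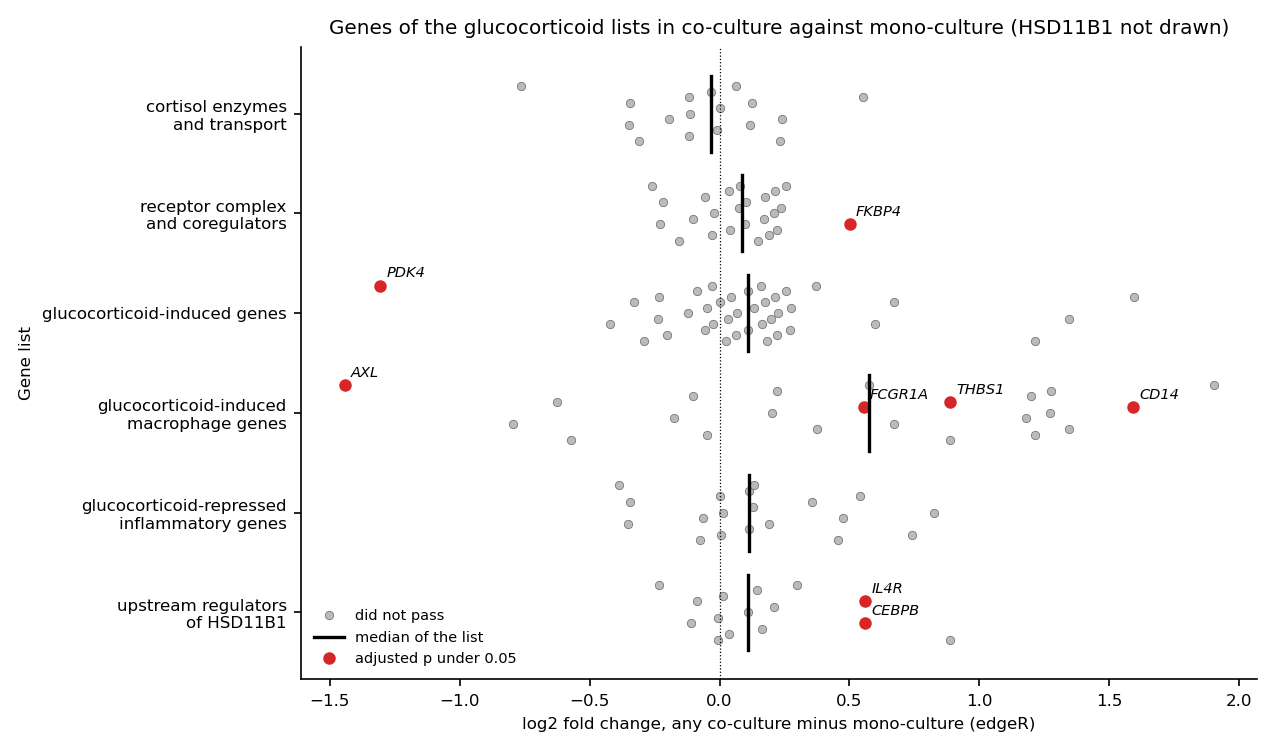
Log2 fold change of any co-culture against mono-culture (x axis, edgeR) for each tested gene of 6 lists (y axis), with red points for genes that passed, grey points for the others and a bar at the list's median. The medians lie between -0.03 and 0.11 except that of the macrophage list, at 0.57, and HSD11B1 is not drawn.

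Of 20 genes listed as inflammatory and repressed by glucocorticoids, which need not hold for each of them, 19 were tested. In any comparison 0 passed by edgeR or by DESeq2. SOCS3 (0.83) was the 1 gene at an unadjusted p under 0.05 in any co-culture against mono-culture, where 10.7% of all genes tested were. Their median log2 fold change was 0.11, with 14 of 19 above 0. CXCL8, a chemokine for neutrophils, was 280 to 613 CPM in mono-culture and 243 to 930 CPM in co-culture, with a log2 fold change of 0.0054 (95% interval -0.70 to 0.71). IL1B, an inflammatory cytokine, was 131 to 611 CPM and 142 to 866 CPM (0.19, -0.89 to 1.27). Both spread more between replicates than between groups. ICAM1, an adhesion molecule, had 0.47 (-0.12 to 1.07).

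Of 16 transcription factors and receptors named with the induction of HSD11B1, 15 were tested and 2 passed in any co-culture against mono-culture, both upwards. The share of all genes tested that passed in this contrast was 0.723%. CEBPB, a C/EBP factor, rose from 46.9 ± 2.59 CPM to a mean of 69.3 CPM (log2 fold change 0.56 ± 0.11 SE, edgeR adjusted p = 0.0127), with 44.2 to 49.4 CPM in mono-culture and 61.0 to 88.3 CPM in co-culture. IL4R, the receptor chain for IL-4 and IL-13, rose from 39.7 ± 2.39 CPM to 58.7 CPM (0.56 ± 0.12 SE, edgeR adjusted p = 0.0348), with 37.4 to 42.1 CPM and 47.3 to 76.2 CPM. Neither gene's groups overlapped, in the same libraries that gave the calls, where 1.77% of all genes tested had every co-culture library above mono-culture. In the single groups by edgeR, CEBPB rose with senECs (0.64 ± 0.13 SE, edgeR adjusted p = 0.0317). This call was lost in 5 of the 12 fits that left out 1 library (0.48 to 0.75, edgeR adjusted p up to 0.180), those without each mono-culture library and senECs replicates 2 and 5. The calls over any co-culture were lost in 3 of the 12 fits that left out 1 library for CEBPB and in 7 for IL4R. CEBPA, the family member at 216 CPM in mono-culture and 215 CPM in co-culture, had -0.0051 (95% interval -0.26 to 0.25), NFKB1 had 0.21 (-0.22 to 0.64) and STAT6 had -0.0047 (-0.17 to 0.16). DESeq2 also called TNFRSF1A and IL1R1, receptors of inflammatory cytokines, in any co-culture. With senECs and with EGCG-treated senECs DESeq2 called CEBPB, TNFRSF1A and IL4R. The list's median was 0.11 with 10 of 15 above 0.

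Between the co-cultures, which ask whether senescence of the ECs or their EGCG treatment matters, 0 of the 9 members passed by edgeR or DESeq2. The share of all genes tested that passed was 0% for senECs against control ECs, 0% for EGCG-treated senECs against senECs and 0% for the former against control ECs, with 1709, 575 and 1177 of the 25873 genes at an unadjusted p under 0.05. The log2 fold change of HSD11B1 was 0.11 (95% interval -0.16 to 0.37) with senECs against control ECs, -0.07 (-0.34 to 0.19) with EGCG-treated senECs against senECs and 0.04 (-0.23 to 0.30) with EGCG-treated senECs against control ECs. The edgeR adjusted p was 0.871, 1.0 and 0.988, and the first of these intervals holds changes of HSD11B1 of up to 1.29-fold. NR3C1 was the 1 member at an unadjusted p under 0.05, with senECs against control ECs, where 6.61% of all genes were. Its 3 senEC libraries, 86.0 to 97.0 CPM, were all below the 3 with control ECs, 102 to 119 CPM, as in 5.66% of all genes tested (log2 fold change -0.27, 95% interval -0.48 to -0.05, edgeR adjusted p = 0.728). KLF9 had the same order of libraries, 53.4 to 61.2 CPM with senECs against 63.2 to 63.3 CPM with control ECs (-0.11, -0.33 to 0.10). FKBP5 had -0.02 (-0.24 to 0.21) with senECs against control ECs and 0.08 (-0.15 to 0.30) with EGCG-treated senECs against senECs. CD163 had 0.66 (-0.81 to 2.12) and 0.04 (-1.42 to 1.49) in the same comparisons, intervals too wide to tell a rise from a fall.

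In the gene lists 0 genes passed between co-cultures by edgeR, and DESeq2 called 0 of all genes. With senECs against control ECs, 4 of 39 glucocorticoid-induced genes had an unadjusted p under 0.05 (median log2 fold change 0.09), as had 3 of 23 of the macrophage list (0.48, 20 of 23 above 0), 2 of 24 of the receptor complex (0.05), 2 of 18 of the cortisol list (-0.0013), 0 of 19 of the repressed inflammatory genes (0.12) and 2 of 15 of the regulators of HSD11B1 (0.14), beside -0.01 for all genes. The reference genes had a median of 0.20 in this comparison, with 10 of 10 above 0. With EGCG-treated senECs against senECs the medians were -0.03 for the induced genes, -0.10 for the macrophage list and -0.06 for the repressed inflammatory genes, against 0 for all genes.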

How the data were processed

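The authors deposited raw counts of reads per gene symbol as whole numbers, without normalization. The reads were aligned with HISAT2 to hg38 according to the submitters' processing notes, and the counting program and annotation are not given in the sources used here. The 12 libraries were grouped by their labels, and 4 columns of the table that match no described sample were not used. The rows match GENCODE 29 in all 57169 symbols, which gave positions and exon lengths. A symbol held by several rows covered 1741 rows, each kept as its own gene, and 23968 rows had no count in these libraries.

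Counts were tested with edgeR 4.0.16 (quasi-likelihood, TMM) in R 4.3.3, over the 25873 genes whose counts summed to at least 10, with 12 libraries in 1 model, the group as the term, Benjamini-Hochberg adjustment over all genes and a threshold of 0.05. The study used DESeq2, run here (1.42.0) as an alternative. In single-value permutation tests of 3 against 3 libraries p cannot be small enough to pass, so that none were run. The 9 genes and all lists were chosen with earlier results of these data known. The lists are those of cortisol enzymes and transport, the receptor complex, glucocorticoid-induced genes, macrophage genes, repressed inflammatory genes, regulators of HSD11B1, macrophage maturation, THP1 and endothelial markers and reference genes. The text names every member, the genes of each list that passed or, where none did, up to 3 with the highest mean CPM, the nearest 3 genes on each side of HSD11B1 and any that overlap it, and the 5 genes nearest in profile. A few further genes (the chaperones, STAR, SOCS3, the complement genes, MERTK, IL10, GAS6, TNFRSF1A, IL1R1 and the abundant genes beside a call) were named after their values were seen. The alternatives were DESeq2 or its size factors alone, a filter that kept every gene counted at all or one that asked each library for at least 10 counts, the libraries compared alone, the replicate number as a term, a pseudocount of 0.5 and each library left out. The tests were tested on simulated data. Python 3.11.15 with pandas 2.3.3, numpy 2.4.6 and matplotlib 3.10.9 served for tables and plots.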

Additional observations from a re-analysis of the deposited data

How the results depend on the processing

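The counts limit what could be seen for ZBTB16, whose 3 to 18 counts per library give a wide interval, and with 3 libraries per group small changes of the other targets stay within their intervals. HSD11B1 kept its direction against mono-culture in all alternatives run. ZBTB16 was absent where at least 10 counts were asked for in every library, and DESeq2 gave it no adjusted p. For any co-culture, the libraries compared are all 12, so that this alternative was not run. Alternatives for the called list genes, and the ranks with 1 library left out, were added after seeing the data.

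The number of genes called in any co-culture, control ECs, senECs and EGCG-treated senECs against mono-culture was 187, 37, 80 and 55. It was 436, 120, 347 and 230 by DESeq2, and 582, 223, 588 and 377 with all genes with a count, where senECs against control ECs, EGCG-treated senECs against senECs and EGCG-treated senECs against control ECs had 114, 14 and 43 calls in place of 0. With at least 10 counts in every library EGCG-treated senECs against mono-culture had 36 calls, and with only the libraries compared senECs had 20 and EGCG-treated senECs 35. With all genes with a count, the members called besides HSD11B1 were 1 in each of the 4 comparisons with mono-culture, 1 in senECs and 1 in EGCG-treated senECs against control ECs, in each case CD163, in the fit with infinite prior degrees of freedom. DESeq2 and the other filters called 0 members. With 1 library left out 0 members were called in any comparison, and the genes called ran from 37 (without mono-culture replicate 2) to 244 in any co-culture, from 11 (without mono-culture replicate 2) to 44 with control ECs, from 19 (without senECs replicate 2) to 255 (without senECs replicate 1) with senECs and from 12 (without mono-culture replicate 2) to 100 (without senECs replicate 5) with EGCG-treated senECs against mono-culture. Without control ECs replicate 3 the counts against control ECs went, for senECs as for EGCG-treated senECs, from 0 to 1. The cause was not tested.

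The replicate numbers did not pair all of the libraries by the correlation of their deviations from the group means. Of 14 same-numbered pairs 10 were over 0.1. The correlation was 0.46 to 0.58 for number 1, 0.42 for the 1 pair of number 3 and 0.34 for that of number 5. For number 2 it ran from 0.03 to 0.34. In all, 8 of 12 libraries correlated best with one of their own number. With a replicate block 824, 469, 709 and 424 genes were called in the comparisons with mono-culture and 153, 13 and 34 in senECs against control ECs, EGCG-treated senECs against senECs and EGCG-treated senECs against control ECs. With the block 2 members besides HSD11B1 were called in any co-culture, CD163 (log2 fold change 0.96, edgeR adjusted p = 4.95e-14) and FKBP5 (0.27, edgeR adjusted p = 0.0219), and 1, CD163, in each of the other 3 comparisons with mono-culture. The SE of CD163 in any co-culture was 0.113 with the block and 0.633 without it. The prior degrees of freedom with the block were not recorded, so that how far a gene's own spread entered the block calls is not known. Set against the mono-culture library of the same number, CD163 was higher in 7 of 7 co-culture libraries (1.13 to 2.48 times), FKBP5 in 7 of 7 (1.07 to 1.37 times) and HSD11B1 in 7 of 7 (1.54 to 2.16 times). For FKBP5 and HSD11B1 this had to hold, as every co-culture library was above every mono-culture library, and that step chose HSD11B1. The 7 ratios of a gene reuse the same mono-culture libraries, and the share of all genes with this order was not computed.

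Signs changed for members that were not called. In any co-culture against mono-culture H6PD went from -0.00014 to 0.0029 with DESeq2 and 0.0029 with its size factors, 0.0042 with all genes with a count and 0.023 with the replicate block. With at least 10 counts in every library PER1 was -0.0041 and KLF9 -0.0061 in senECs against mono-culture, and PER1 -0.0084 in senECs against control ECs. With all genes with a count TSC22D3 was -0.011 and KLF9 -0.0087 in EGCG-treated senECs against senECs, and H6PD -0.0014 in EGCG-treated senECs against control ECs. With the replicate block senECs against mono-culture gave 0.015 for H6PD, 0.059 for TSC22D3 and -0.018 for KLF9, and EGCG-treated senECs against mono-culture 0.059 for TSC22D3, -0.015 for KLF9 and 0.13 for ZBTB16. With the block senECs against control ECs gave 0.013 for H6PD, 0.0073 for FKBP5 and 0.038 for ZBTB16, and EGCG-treated senECs against control ECs -0.059 for HSD11B1.

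With 1 library left out in turn, the log2 fold changes of members that were not called crossed 0 within these ranges. In any co-culture against mono-culture H6PD ran from -0.038 to 0.071, NR3C1 from -0.068 to 0.022, TSC22D3 from -0.15 to 0.048, PER1 from -0.12 to 0.12 and KLF9 from -0.00076 to 0.11. In control ECs against mono-culture H6PD ran from -0.072 to 0.079, PER1 from -0.15 to 0.089 and CD163 from -0.091 to 1.32. In senECs against mono-culture H6PD ran from -0.073 to 0.048, TSC22D3 from -0.12 to 0.080, PER1 from -0.13 to 0.11 and KLF9 from -0.041 to 0.083. In EGCG-treated senECs against mono-culture H6PD ran from -0.021 to 0.085, NR3C1 from -0.11 to 0.00033, TSC22D3 from -0.16 to 0.086, PER1 from -0.077 to 0.16 and KLF9 from -0.042 to 0.074. In senECs against control ECs H6PD ran from -0.087 to 0.051, FKBP5 from -0.063 to 0.082, PER1 from -0.049 to 0.15, ZBTB16 from -1.22 to 0.25 and CD163 from -0.51 to 1.64. In EGCG-treated senECs against senECs HSD11B1 ran from -0.20 to 0.011, TSC22D3 from -0.13 to 0.11, PER1 from -0.044 to 0.10, KLF9 from -0.064 to 0.050, ZBTB16 from -0.20 to 1.27 and CD163 from -1.13 to 1.21. In EGCG-treated senECs against control ECs HSD11B1 ran from -0.089 to 0.11, H6PD from -0.051 to 0.088, FKBP5 from -0.0095 to 0.16, TSC22D3 from -0.029 to 0.22, PER1 from -0.037 to 0.20, ZBTB16 from -0.073 to 0.22 and CD163 from -0.48 to 1.68.

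The calls of list genes in any co-culture against mono-culture were lost (adjusted p over 0.05) as follows. Without mono-culture replicate 1 CD14, CEBPB, FCGR1A, FKBP4, IL4R, KIT, PDK4 and THBS1 were lost (0.0789 to 0.247), without replicate 2 CD14, CEBPB, FCGR1A, GPNMB, IL4R, KIT, PDK4 and THBS1 (0.0957 to 0.345) and without replicate 3 CD14, CEBPB, FCGR1A, FKBP4, GPNMB, IL4R, PDK4 and THBS1 (0.0508 to 0.266). Without replicate 2 of control ECs, of senECs or of EGCG-treated senECs CD14, FKBP4, IL4R and THBS1 were lost, and without EGCG-treated senECs replicate 2 FCGR1A also (0.0508 to 0.0889). Without control ECs replicate 3 these 5 were lost (0.0596 to 0.0743), without EGCG-treated senECs replicate 5 CD14 and FCGR1A (0.0749 and 0.0608) and without senECs replicate 5 THBS1 (0.0539). AXL was called in all of them. With at least 10 counts in every library CD14, IL4R and THBS1 were not called, and with DESeq2's size factors CD14 and THBS1. The call of AXL in EGCG-treated senECs was lost in 8 of 12 fits without 1 library and in senECs without senECs replicate 2, and in senECs those of CD14 and CEBPB in 7 and 5. With at least 10 counts in every library these calls of AXL in EGCG-treated senECs and of CD14 and CEBPB in senECs were lost (edgeR adjusted p = 0.0726, 0.0779 and 0.0529), as they were with only the libraries compared (0.0901, 0.0793 and 0.117). At a pseudocount of 0.5 the 5 genes nearest to HSD11B1 in profile ranked 1, 2, 4, 7 and 3, and without 1 library PPP1R27 and LAP3 ranked 1 to 6 and 1 to 5, and METTL7B, CEACAM4 and STAC down to 20, 23 and 22.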

Other observations

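All 25 genes of the list of those that rise as monocytes mature into macrophages were tested. Their median log2 fold change in any co-culture against mono-culture was -0.13, with 10 of 25 above 0. By edgeR 1 passed as higher and 1 as lower, where 0.723% of all genes tested passed. The higher one was CD14, and the lower one was GPNMB, a lysosomal glycoprotein, which fell from 12.2 ± 2.94 CPM (SD, n = 3) to a mean of 6.37 CPM (-0.95 ± 0.17 SE, edgeR adjusted p = 0.00957), with 9.01 to 14.8 CPM in mono-culture and 4.84 to 8.64 CPM in co-culture. The chitinase-like protein CHI3L1, the most abundant gene of the list, had 5330 CPM in mono-culture and 4867 CPM in co-culture (-0.13, 95% interval -0.39 to 0.13). Among the THP1 monocyte markers KIT, the stem cell factor receptor, fell from 4.84 ± 1.06 CPM to 2.11 CPM (-1.20 ± 0.23 SE, edgeR adjusted p = 0.0165), beside CD14 and FCGR1A, which rose. The call of GPNMB was lost without mono-culture replicate 2 or 3, and that of KIT without mono-culture replicate 1 or 2. With senECs (replicates 1, 2 and 5) against control ECs (1, 2 and 3), 21 of 25 maturation genes were above 0 with a median of 0.24. The reference genes had a median of 0.20 in this comparison with 10 of 10 above 0, and the THP1 markers 0.15 with 14 of 18. By edgeR or DESeq2 0 of the 25 maturation genes passed, with 5 at an unadjusted p under 0.05, where 6.61% of all genes tested were.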
